A study of Homo sapiens with 15 samples.

Results

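The Krüppel-like factors (KLFs) are transcription factors that bind CACCC and GC-rich boxes in DNA through zinc fingers at their C-terminal end, and their N-terminal regions recruit either coactivators or corepressors. To describe how their genes were marked in breast cancer cells of different metastatic capacity, 10 KLF genes (KLF2, KLF3, KLF4, KLF5, KLF6, KLF7, KLF9, KLF10, KLF12 and KLF14) were followed across the ChIP-seq libraries of a parental line and its lung and brain metastatic derivatives. The members were all H3K4me3 peaks within 2 kb of a protein-coding start of these genes, 11 of 22572 consensus peaks, and all H3K27ac peaks within 100 kb whose nearest protein-coding start belonged to one of them, 65 of 62195. All 10 of these genes, out of 20149 protein-coding genes in the annotation, had at least 1 peak of each mark. KLF14 was put on the list because its H3K4me3 counts in these same libraries were lower in LM2 and BrM2, so its values of both marks are described below without a test.

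H3K4me3 marks active promoters, and H3K27ac marks active promoters and enhancers. Parental MDA-MB-231 cells (Par), a claudin-low human breast cancer line, were compared with LM2, a lung metastatic derivative, and BrM2, a brain metastatic derivative, all cultured in DMEM with 10% serum for 3 days and fixed with 1% formaldehyde. LM2 and BrM2 are populations selected in mice from that 1 line, so they share its origin, and the labels name no treatment or gene alteration in any of the lines. Each line had 2 biological replicates per mark, and with 2 libraries a group the p-values measure the spread between these libraries only.

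Total counts in peaks were 3489607 to 9839629 per H3K4me3 library and 1994996 to 6450028 per H3K27ac library. Values are given as CPM, the counts of a peak scaled to the library's total of counts in peaks, and tests are DESeq2 Wald tests over all peaks of a mark with Benjamini-Hochberg adjustment. Promoter H3K4me3 was found at all 6 mesenchymal markers of this line (VIM, CD44, ZEB1, AXL, CAV1 and FN1; 11.4 to 64.1 CPM per kb), at all 6 luminal markers (1.07 to 29.4 CPM per kb), whose range overlapped that of the former, and at 1 of 6 blood, endothelial and liver markers (APOA1; 5.76 to 7.19 CPM per kb). The counts are of bulk cells, so a mark lost from a share of the cells and a mark lowered in every cell cannot be told apart.

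The sets of factors differ in the partners they are known for. KLF2, KLF4, KLF5, KLF6 and KLF7 are mostly known as activators, KLF3 and KLF12 recruit the CtBP corepressors, and KLF9, KLF10 and KLF14 belong to the group that binds the Sin3A corepressor. KLF14 is a gene without introns that is expressed from the maternal allele in an imprinted cluster with MEST on chromosome 7, and it is known as a regulator of gene expression in adipose tissue.

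The 250 bases upstream of the start are shown for KLF14, whose promoter had the lowest level of both marks among the 10 genes in both metastatic lines. They are also shown for KLF2 and KLF9, whose H3K27ac peak at the promoter, which at KLF2 runs past the gene, differed between BrM2 and Par. They were read from the GRCh37 (hg19) genome, 5′ to 3′ on the strand of the gene, at chr7:130418968-130419217 (minus strand), chr19:16435387-16435636 (plus strand) and chr9:73029574-73029823 (minus strand). Capitals mark the letters CACCC or GGGTG and GGGCGG or CCGCCC, searched on both strands.
KLF14: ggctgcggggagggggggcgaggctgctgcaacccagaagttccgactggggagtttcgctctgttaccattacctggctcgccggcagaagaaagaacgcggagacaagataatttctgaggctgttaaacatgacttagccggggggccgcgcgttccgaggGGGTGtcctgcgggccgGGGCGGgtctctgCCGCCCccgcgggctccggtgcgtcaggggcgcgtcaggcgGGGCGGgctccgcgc
KLF2: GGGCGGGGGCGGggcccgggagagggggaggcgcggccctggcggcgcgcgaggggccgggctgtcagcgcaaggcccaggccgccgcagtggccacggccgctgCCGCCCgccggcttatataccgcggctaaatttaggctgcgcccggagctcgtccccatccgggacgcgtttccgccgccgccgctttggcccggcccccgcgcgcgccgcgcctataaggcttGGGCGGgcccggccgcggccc
KLF9: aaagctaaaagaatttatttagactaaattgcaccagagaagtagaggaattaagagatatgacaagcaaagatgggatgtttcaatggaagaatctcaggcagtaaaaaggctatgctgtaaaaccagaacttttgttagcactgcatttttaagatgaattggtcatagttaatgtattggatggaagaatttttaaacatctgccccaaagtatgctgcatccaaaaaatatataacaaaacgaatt
The KLF14 window held 1 CACCC match and 3 GC-box matches with 68.8% G and C, and the KLF2 window held 4 GC-box matches with 80% G and C. The KLF9 window held neither and had 32.4% G and C. Among the same windows of 20140 genes, 56.9% held CACCC, 48.8% held a GC box, 16.4% held 3 or more GC boxes, and the median G and C content was 59.6%. A match describes the letters and is no evidence of binding.

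The windows of KLF14 and KLF2 lay with all 250 bases inside an H3K4me3 peak, against 61 bases for KLF9, and with 156, 250 and 0 bases inside an H3K27ac peak. Across its whole H3K4me3 peak KLF14 had 68.1% G and C and a ratio of observed to expected CpG of 0.98, while promoter peaks had medians of 56.8% and 0.67. At 1274 bp this peak was shorter than the median promoter peak of 2225 bp. The main promoter peaks of the other KLF genes spanned 3862 bp (KLF9) to 10050 bp (KLF6).

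H3K4me3 at KLF14 was at the level of its relatives in parental cells and near 0 in brain metastatic cells. The peak, at chr7:130418268-130419541, holds the start and part of the coding sequence of the only exon. It had 45.3 and 35.0 CPM in Par replicates 1 and 2, 2.75 and 6.71 CPM in LM2, and 0 and 0.372 CPM in BrM2, from counts of 158 and 235, 12 and 66, and 0 and 3. The 3 lines did not overlap, with Par highest and BrM2 lowest. The Par mean was 8.48-fold above the LM2 mean. With both BrM2 libraries at or under the floor of 3 counts per library, BrM2 was at least 78.2-fold lower than Par and at least 9.22-fold lower than LM2. Without LM2 replicate 2, the library with most LM2 counts, the fitted log2 difference between LM2 and Par was −3.69 in place of −3.08.

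**Figure D1:**
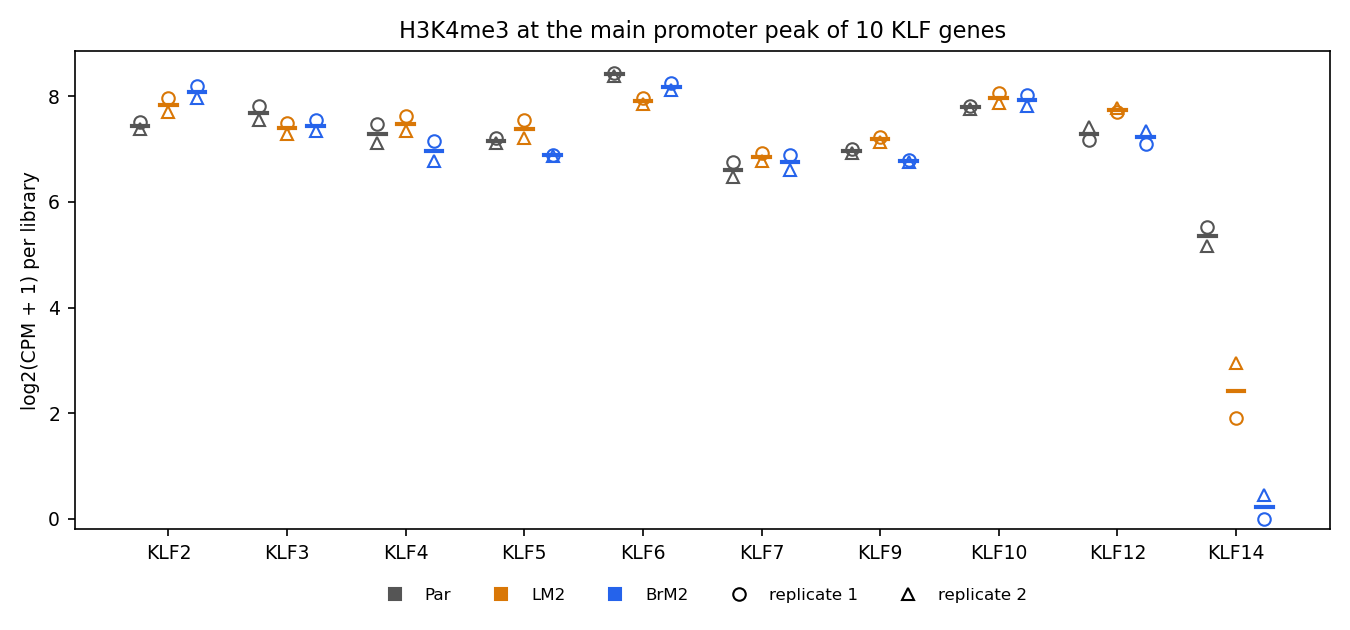
H3K4me3 at the main promoter peak of the 10 KLF genes, as log2(CPM + 1) of the whole peak, for Par (grey), LM2 (orange) and BrM2 (blue); circles are replicate 1, triangles replicate 2 and dashes their mean. KLF14 was the shortest peak and the lowest in every line, and its BrM2 libraries, at 0 and 0.372 CPM, lay near the bottom of the axis.

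Per length, KLF14 ranked 7 of 10 in Par, with 31.5 ± 5.70 CPM per kb (SD, n = 2), and its replicates overlapped those of KLF4 and KLF12, its neighbours in the order, so that their ranks did not differ beyond their spread. The highest were KLF10 (43.0), KLF3 (40.3) and KLF2 (38.2), and the lowest was KLF7 (23.1). All promoter peaks had a median of 24.1 CPM per kb in Par. In LM2 the order ran from KLF2 (50.1) and KLF10 (49.0), which overlapped, through KLF12 (42.6) to KLF6 (24.0), and KLF14 stood last at 3.71 ± 2.19. In BrM2, KLF2 was the highest at 59.8 ± 6.41, KLF10 followed at 47.4, the next 6 genes from KLF3 (34.1) to KLF4 (25.2) each overlapped the next in order, and KLF14 was the lowest at 0.146 ± 0.206.

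The small H3K27ac peak at the KLF14 start had its highest values in Par. At chr7:130418334-130419123 it covered 790 bp and had 5.02 and 8.61 CPM in Par, 0.31 and 1.86 CPM in LM2, and 0.255 and 0.501 CPM in BrM2, from counts of 22 and 33, 2 and 7, and 1 and 1. Par lay above both other lines, which did not overlap it, while LM2 and BrM2 overlapped each other. The Par mean was 6.28-fold above the LM2 mean (fitted log2 −2.83 ± 0.90, SE), and with both BrM2 libraries under the floor BrM2 was at least 6.01-fold lower than Par. The peak passed the filter on low counts through Par, the line in which it was high, and no p is given. The difference between BrM2 and LM2 was not detectable at these counts (log2 −1.47, 95% interval −4.11 to 1.18). The LM2 value was −1.91 without LM2 replicate 1 and −4.54 without LM2 replicate 2.

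**Figure D2:**
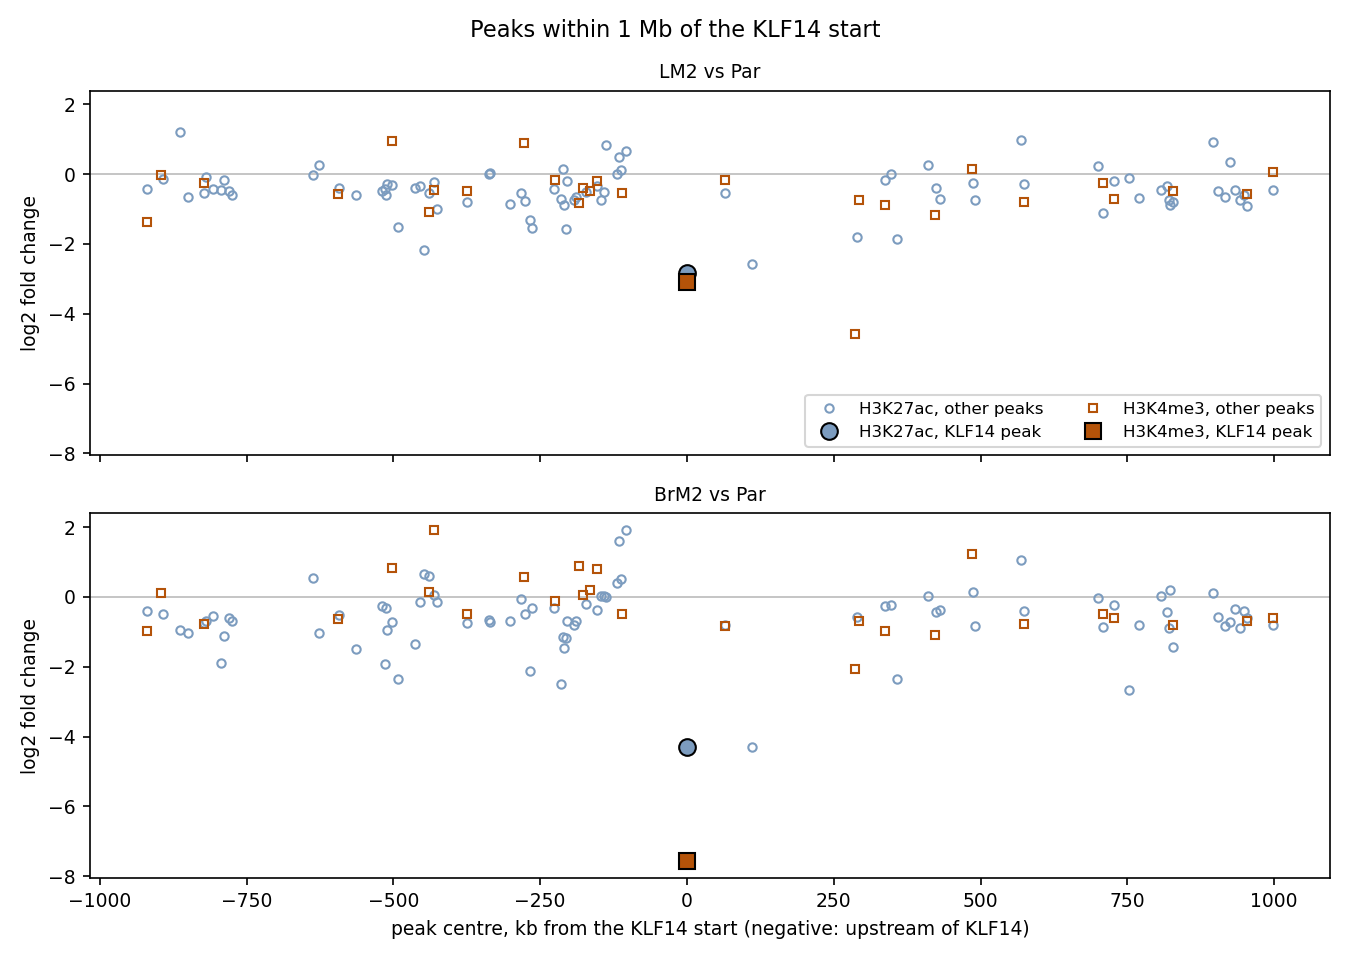
Log2 fold change of all H3K4me3 and H3K27ac peaks within 1 Mb of the KLF14 start, in LM2 and BrM2 against Par, by distance of the peak's centre from the start in kb; negative distances lie upstream of KLF14, and COPG2 and MEST lie on the positive side. Filled symbols are the KLF14 peaks, at −3.08 and −2.83 in LM2, and most other peaks lay below 0.

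Most peaks around KLF14 also had log2 fold changes below 0, of smaller size. Of the 27 other H3K4me3 peaks within 1 Mb, 23 had a log2 fold change below 0 in LM2 and 17 in BrM2, with medians of −0.48 and −0.49, beside medians of −0.23 and −0.29 over all of chromosome 7. Of the 84 other H3K27ac peaks, 69 were below 0 in LM2 and 68 in BrM2, with medians of −0.46 and −0.58, beside −0.31 and −0.27 for the chromosome. With size factors computed within each chromosome the fitted H3K27ac difference of KLF14 in LM2 was −2.54.

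Within the same 1 Mb, 2 of the 27 H3K4me3 and 3 of the 84 H3K27ac peaks other than those of KLF14 were called in LM2 (DESeq2). In BrM2 there were 0 and 4. Over all peaks, 2.51% and 3.63% were called in LM2, and 3.61% and 5.29% in BrM2. The H3K27ac calls were thus about as frequent as over all peaks. An H3K27ac peak 111 kb away on the side of COPG2, at chr7:130306831-130308542, fell in LM2 (log2 −2.57 ± 0.72, adjusted p = 0.0161) and in BrM2 (−4.29 ± 1.07, adjusted p = 0.00301). Its mean over the libraries was only 14.7 normalized counts, so the sizes of these falls rest on few counts. An H3K27ac peak 104 kb away on the other side, at chr7:130522536-130523746, rose in BrM2 (1.90 ± 0.60, adjusted p = 0.0321). Its nearest protein-coding start was that of KLF14, and it was no member because it lay beyond 100 kb. The same held for a longer peak at chr7:130577601-130605276. That peak was not called in LM2 (−0.51 ± 0.23, adjusted p = 0.28) or BrM2 (−0.19 ± 0.23, adjusted p = 0.807). The KLF14 member is thus not the only H3K27ac peak nearest to this gene. MEST, a paternally expressed member of the same imprinted cluster, had a small H3K4me3 peak at chr7:130131748-130132311 that fell in LM2 (−4.57 ± 1.07, adjusted p = 0.00174), while its larger one at chr7:130125662-130127015 did not pass (−0.73 ± 0.51, adjusted p = 0.915). Its H3K27ac peak (chr7:130125193-130132316) was lower in LM2 as well (−1.79 ± 0.35, adjusted p = 8.23e-05). The remaining calls were all lower and lay nearest to MKLN1 (H3K27ac, −1.53) and PODXL (H3K4me3, −1.36) in LM2, and UBE2H (−1.45) and ZC3HC1 (−2.67), both H3K27ac, in BrM2.

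The promoter peak whose H3K4me3 was most like that of KLF14 lay at chr12:8171109-8171974. Its nearest annotated protein-coding transcript start belonged to SLC2A3, which encodes the glucose transporter GLUT3. Whether this is the main promoter of SLC2A3 was not checked. Likeness was the Euclidean distance over the 6 libraries between log2(CPM + 1) values centred on their mean, among 13358 other promoter peaks. SLC2A3 (distance 1.75, r = 0.992) had 13.5 and 13.1 CPM in Par, 2.52 and 3.05 CPM in LM2, and 0.218 and 0.248 CPM in BrM2. SCNN1A (2.20), MARK2 (2.50), ANKRD7 (2.61) and ARHGEF25 (2.78) followed. With 1 minus Pearson's r in place of the distance, only SLC2A3 remained among the nearest 5, so the other names depend on the measure.

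At the other KLF promoters no H3K4me3 difference passed the test. Apart from KLF14 there were 10 peaks, and DESeq2 called 0 in LM2 against Par, 0 in BrM2 against Par and 0 in BrM2 against LM2, where 2.51%, 3.61% and 3.18% of all peaks were called. At an unadjusted p under 0.05 there were 0, 0 and 1 of them (KLF12, BrM2 against LM2), against 1830, 2365 and 2453 of all 22572 peaks. edgeR also called 0, 0 and 0, against 1.91%, 3.86% and 3.36% of all peaks. Their median log2 fold changes were 0.26, −0.20 and −0.36, and those of all peaks 0.02, −0.02 and −0.04. The standard errors, 0.30 to 0.38 for the 9 main peaks, leave room for differences of that size.

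Libraries with the same replicate number varied together, and when that number was added to the model (the replicate block) more peaks were called. It called 3 of the 10 peaks in LM2 against Par, 5 in BrM2 against Par and 4 in BrM2 against LM2, beside 14.4%, 17.7% and 22.0% of all peaks. The blocked edgeR fit called 9, 6 and 6, beside 31.1%, 36.3% and 42.7%. The blocked fit had KLF2 higher in LM2 (adjusted p = 0.000431) and BrM2 (1.05e-07), KLF12 higher in LM2 (0.000371), and KLF6 lower in LM2 (1.3e-06) and BrM2 (0.00453). In BrM2 it also had KLF3 (0.0197), KLF4 (0.00256) and KLF5 (0.036) lower than in Par. Against LM2 it had KLF4 (1.36e-07), KLF5 (2.82e-05), KLF9 (0.000169) and KLF12 (6.55e-07) lower in BrM2. In that comparison all H3K4me3 peaks of chromosome 9 (KLF4, KLF9) had a median of −0.49, and those of chromosome 13 (KLF5, KLF12) −0.55. Chromosome 9 had −0.35 in BrM2 against Par, and chromosome 13 had 0.52 in LM2 against Par. The blocked fit did not use size factors within each chromosome, so the part of these shifts in its calls was not tested.

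The values by library show the same order. KLF2 had 181 and 166 CPM in Par, 248 and 206 CPM in LM2, and 292 and 251 CPM in BrM2, so no library of either metastatic line reached down to Par. KLF6 had 347 and 335 CPM in Par, 250 and 232 CPM in LM2, and 303 and 278 CPM in BrM2, and these did not overlap either. KLF12 had 143 and 171 CPM in Par, 207 and 218 CPM in LM2, and 136 and 162 CPM in BrM2, which overlapped Par. At KLF2 and KLF6 replicate 2 lay below replicate 1 in every line.

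KLF4, one of the factors used to reprogram cells to pluripotency, had 177 and 138 CPM in Par, 197 and 161 CPM in LM2, and 142 and 109 CPM in BrM2. KLF5, which promotes proliferation of epithelial cells, had 148 and 137, 186 and 147, and 118 and 116 CPM. KLF9, a target of glucocorticoid and thyroid hormone, had 127 and 122, 149 and 141, and 110 and 108 CPM. BrM2 was thus below LM2 in all libraries of these 3 genes. The median log2 fold changes of their chromosomes, 9 and 13, were also below 0 in that comparison. KLF3 (156 to 224 CPM), KLF7 (88.0 to 121 CPM), a factor of neuronal development, and KLF10 (217 to 267 CPM), an early target of TGF-beta, showed log2 fold changes between −0.31 and 0.26 in the 3 comparisons. KLF7 had a small extra peak 1144 bp from a start, with 0 to 2.52 CPM.

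**Figure D3:**
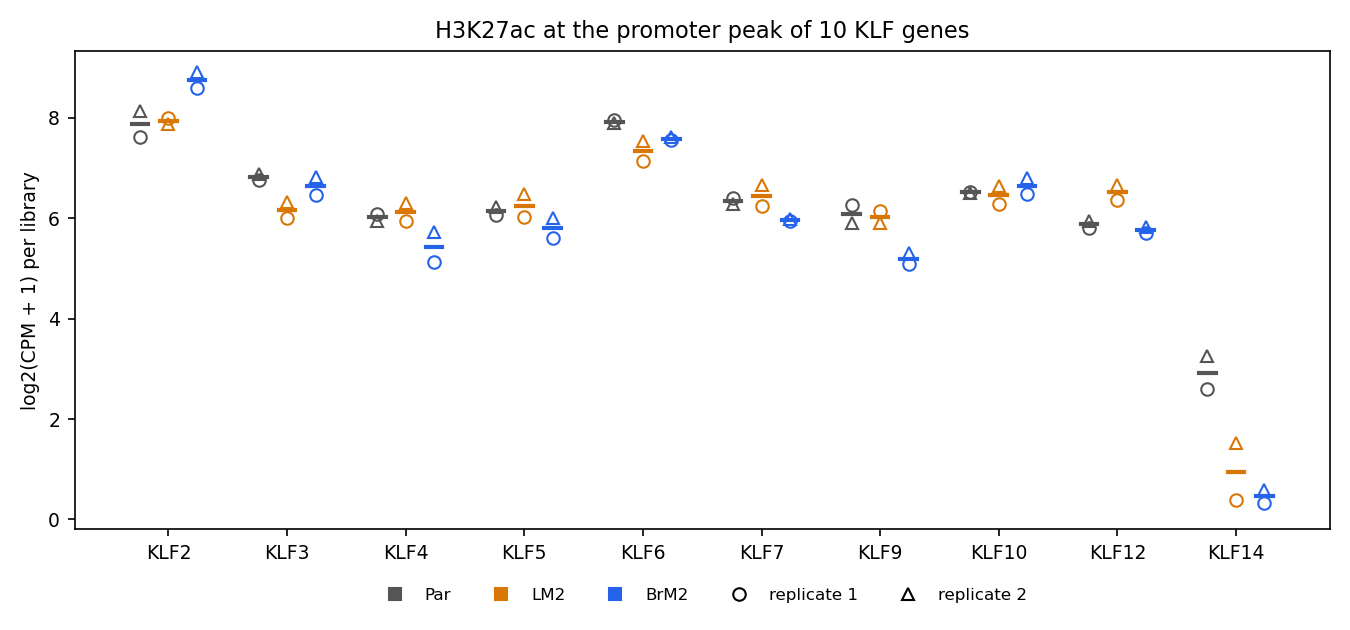
H3K27ac at the promoter peak of the 10 KLF genes, as log2(CPM + 1) of the whole peak, for Par (grey), LM2 (orange) and BrM2 (blue); circles are replicate 1, triangles replicate 2 and dashes their mean. KLF2 was highest in BrM2, at 384 and 480 CPM, and KLF14 was the lowest in every line.

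In the plain DESeq2 fit H3K27ac calls among the KLF peaks were few and about as frequent as over all peaks. Besides that of KLF14 there were 64 peaks, of which 53, 55 and 50 received an adjusted p in LM2 against Par, BrM2 against Par and BrM2 against LM2. In LM2, 2 passed (a peak upstream of KLF6 lower, an intronic peak of KLF12 higher), beside 3.63% of all peaks. In BrM2, 2 passed (KLF2 higher, KLF9 lower), beside 5.29%. BrM2 against LM2 had 2 calls (KLF2 and KLF6, both higher in BrM2), beside 2.94%. Median log2 fold changes of the 65 peaks, KLF14 included, were 0.06, −0.17 and −0.23, and that of all H3K27ac peaks was −0.02 in each comparison. With the block DESeq2 called 7 of 51, 3 of 53 and 6 of 49 tested peaks without KLF14, beside 5.44%, 8.13% and 6.17% of all peaks. In LM2 against Par and BrM2 against LM2 these were above the share over all peaks. Plain edgeR called 3, 3 and 4 of 53 tested peaks without KLF14, beside 6.13%, 8.4% and 4.75%. With the block edgeR called 15, 9 and 12 of 54 tested peaks, KLF14 included, beside 16.5%, 20.3% and 16.7%.

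KLF2, an activator known for endothelial quiescence, had more H3K27ac in brain metastatic cells than in either other line. The peak covered the gene and 21048 bp in all (chr19:16432828-16453875), and had 197 and 280 CPM in Par, 256 and 236 CPM in LM2, and 384 and 480 CPM in BrM2. The gene ends at position 16439496, so much of the peak lies downstream and its counts are not of the promoter alone. Both BrM2 libraries lay above the other 4, and Par and LM2 overlapped. BrM2 was 1.81-fold above Par (log2 0.86 ± 0.27, adjusted p = 0.0304) and 1.84-fold above LM2 (0.88 ± 0.27, adjusted p = 0.0393), while LM2 and Par differed by −0.02 ± 0.27. The other 6 KLF2 peaks, 22117 to 44578 bp upstream, had 2.13 to 35.8 CPM and no calls.

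Most other peaks near KLF2 also had log2 fold changes above 0 in BrM2. The 47 other H3K4me3 peaks within 1 Mb had a median log2 fold change of 0.46 against Par, with 5 below 0, and the 74 other H3K27ac peaks one of 0.47, with 15 below 0. Chromosome 19 as a whole had medians of 0.03 and 0.08, and in LM2 the medians near KLF2 were −0.04 and −0.11. With size factors computed within each chromosome KLF2 still passed, at 0.78 against Par and 0.80 against LM2. The part of the wider neighbourhood in its value was not tested. The call against Par was lost without Par replicate 1 (0.63), LM2 replicate 1 (0.86) or 2 (0.85), or BrM2 replicate 1 (1.02) or 2 (0.69), and the call against LM2 without LM2 replicate 1 (0.91) or 2 (0.83) or BrM2 replicate 1 (1.04) or 2 (0.71). The call against Par also missed the threshold in a fit of only Par and BrM2 (adjusted p = 0.0624), and that against LM2 with at least 10 counts in every library (0.0692) and with no independent filtering (0.0507).

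KLF6, a broadly expressed factor with known tumor suppressor activity, had the most H3K27ac of the set, with 12 peaks over 70.2 kb, and 1 of them fell in LM2. This peak, at chr10:3844419-3857728, lies 16946 bp upstream outside the gene and had 213 and 165 CPM in Par, 120 and 106 CPM in LM2, and 211 and 188 CPM in BrM2. LM2 lay below the other lines, which overlapped. It was lower in LM2 than in Par (log2 −0.81 ± 0.26, adjusted p = 0.0474) and higher in BrM2 than in LM2 (0.89 ± 0.26, adjusted p = 0.0267), and BrM2 and Par differed by 0.08 ± 0.26.

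The next peak, 35819 bp upstream at chr10:3863292-3873085, had 68.9 and 70.5 CPM in Par, 40.3 and 42.5 CPM in LM2, and 71.6 and 71.2 CPM in BrM2. It showed the same order and just missed the test in LM2 (−0.82 ± 0.27, adjusted p = 0.066) and between BrM2 and LM2 (0.85 ± 0.28, adjusted p = 0.06), and the blocked fit called both (0.00971 and 0.00667). The promoter peak of KLF6 had 247 and 239 CPM in Par, 140 and 185 CPM in LM2, and 187 and 195 CPM in BrM2, with −0.64 ± 0.26 in LM2 (adjusted p = 0.174, 0.0154 with the block). Of the 7 KLF6 peaks of at least 2 kb, 6 had a log2 fold change below 0 in LM2 (−0.82 to 0.06), and 0 were below 0 in BrM2 against LM2 (0.25 to 0.89). Summed over the 12 peaks, H3K27ac was 669 ± 55.2 CPM in Par, 441 ± 16.8 in LM2 and 624 ± 27.8 in BrM2 (SD, n = 2).

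The 109 other H3K27ac peaks within 1 Mb of KLF6 had a median of −0.43 in LM2, with 83 below 0, and of −0.12 in BrM2, beside −0.17 and 0.01 for chromosome 10. With size factors computed within each chromosome the changes of the called peak were −0.65 in LM2 (adjusted p = 0.172) and 0.71 between BrM2 and LM2 (0.129). The LM2 call was also lost without Par replicate 1 (−0.62) or 2 (−0.98), LM2 replicate 1 (−0.88) or 2 (−0.74), or BrM2 replicate 1 (−0.81) or 2 (−0.81), and the call between BrM2 and LM2 without LM2 replicate 1 (0.96) or 2 (0.81) or BrM2 replicate 1 (0.81) or 2 (0.97). The LM2 call also missed the threshold with at least 10 counts in every library (adjusted p = 0.0877), with no independent filtering (0.0593) and in a fit of only Par and LM2 (0.0983), and the other call with at least 10 counts in every library (0.0578).

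**Figure D4:**
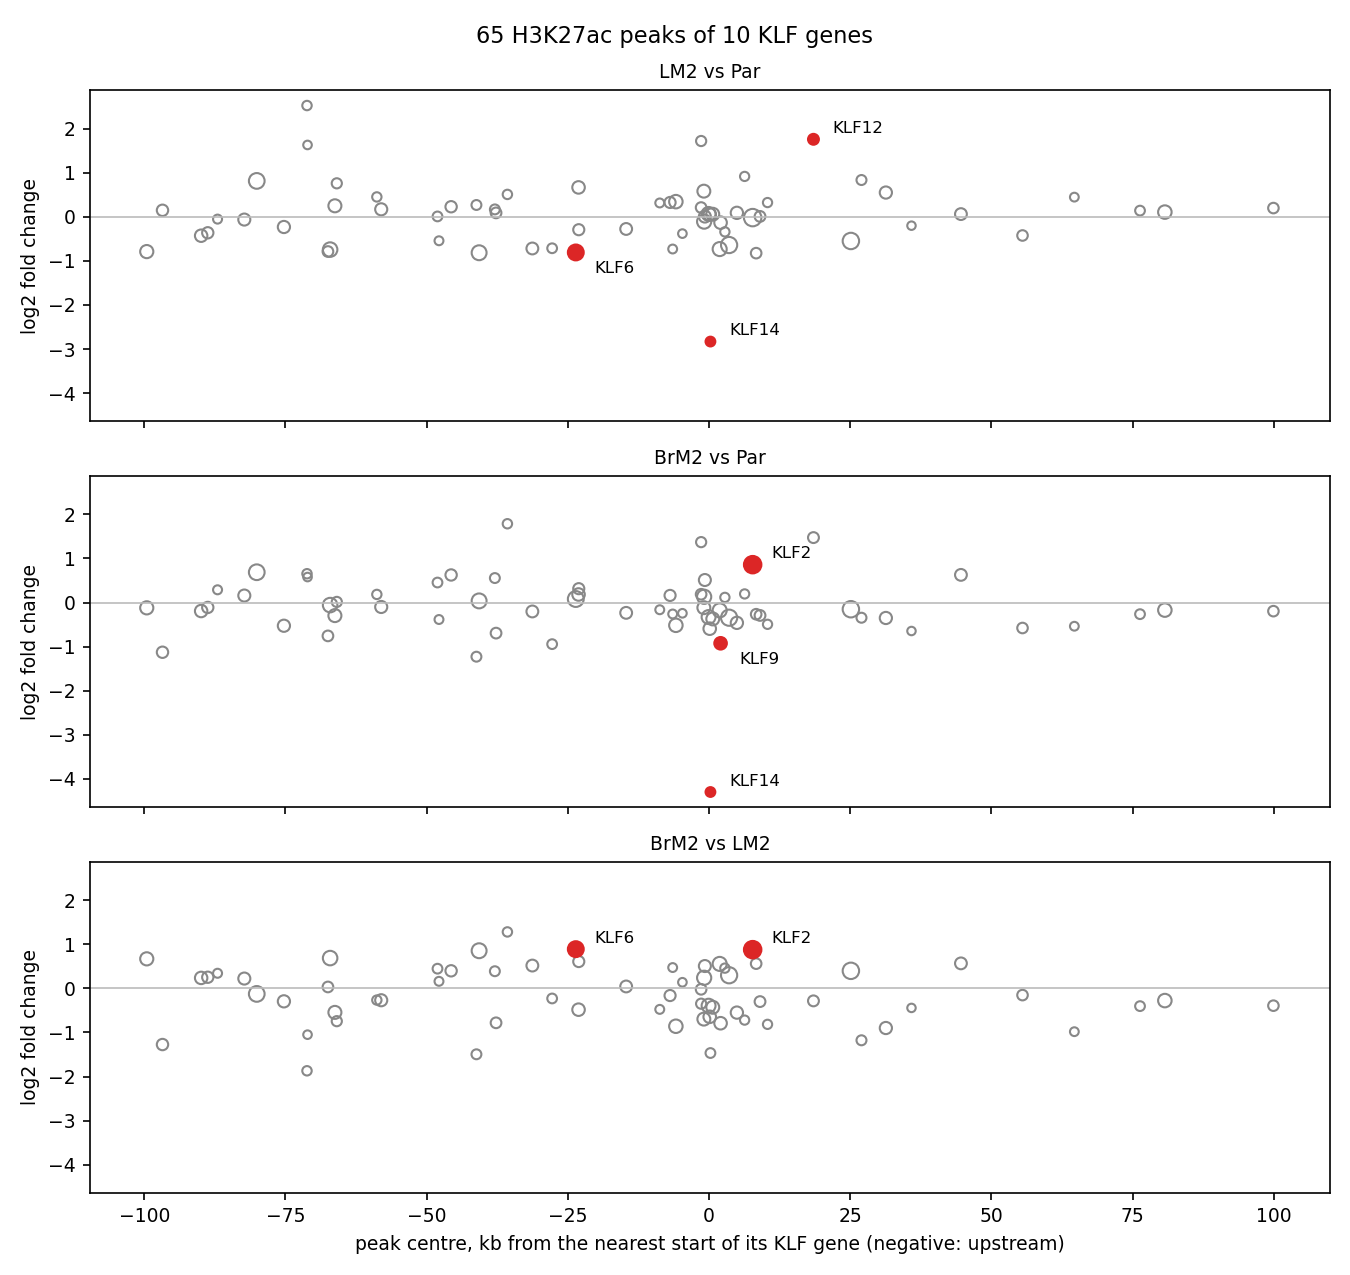
Log2 fold change of the 65 H3K27ac peaks by distance of their centre from the gene's start in kb, in LM2 against Par, BrM2 against Par and BrM2 against LM2; larger points are longer peaks and red points have an adjusted p under 0.05. The red points are the KLF2, KLF6, KLF9 and KLF12 peaks described in the text and that of KLF14. KLF14 was chosen for its low counts, so its red colour is not read as a test.

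KLF9 had less H3K27ac at its start in BrM2. The peak ends 54 bp inside the gene and overlaps its exon (chr9:73025560-73029519), and had 75.9 and 59.0 CPM in Par, 69.6 and 59.0 CPM in LM2, and 32.9 and 38.6 CPM in BrM2. Par and LM2 overlapped and both BrM2 libraries lay below them. The difference from Par was −0.92 ± 0.30 (adjusted p = 0.0441), and that from LM2 was −0.79 ± 0.30 (adjusted p = 0.147, 0.0345 with the block). A second peak 2958 bp upstream (chr9:73032531-73038377) had 61.8 and 64.2 CPM in Par, 76.6 and 90.7 CPM in LM2, and 44.4 and 43.6 CPM in BrM2, and BrM2 differed from LM2 by −0.86 ± 0.28 (adjusted p = 0.0674, 0.00884 with the block). All 5 KLF9 peaks were lower in BrM2 than in LM2 by their log2 fold changes, with a median of −0.79.

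Chromosome 9 was lower in BrM2 as a whole, with a median of −0.34 for H3K27ac against Par, and the 44 other peaks within 1 Mb of KLF9 had one of −0.40. Between BrM2 and LM2 these medians were −0.45 and −0.66, so the lower values of the KLF9 peaks were shared by their neighbourhood. With size factors computed within each chromosome the change at the KLF9 start against Par was −0.62 and did not pass (adjusted p = 0.291). It also failed without Par replicate 1 (−0.73) or 2 (−1.09), LM2 replicate 1 (−0.92) or 2 (−0.93), or BrM2 replicate 1 (−0.79) or 2 (−1.03), with no independent filtering (adjusted p = 0.0526) and in a fit of only Par and BrM2 (0.0908).

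KLF12, a repressor first described for its action on the AP-2 alpha gene, gained H3K27ac in LM2 at an intronic peak. This peak of 1668 bp, 17645 bp from a start at chr13:74688754-74690421, had 4.79 and 3.92 CPM in Par, 18.4 and 12.2 CPM in LM2, and 13.0 and 11.03 CPM in BrM2, from counts of 21 and 15, 119 and 46, and 51 and 22. Par lay below both metastatic lines, which overlapped. It was 3.38-fold higher in LM2 (log2 1.76 ± 0.49, adjusted p = 0.0134). In BrM2 the log2 fold change was 1.47 ± 0.50 (adjusted p = 0.0592, 0.0348 with the block and 0.0234 with edgeR), and BrM2 and LM2 differed by −0.28 (95% interval −1.18 to 0.61). The promoter peak of KLF12 had 55.2 and 61.1 CPM in Par, 80.9 and 101 CPM in LM2, and 51.2 and 56.1 CPM in BrM2, and its −0.70 ± 0.29 between BrM2 and LM2 passed only with the block (0.0418, against 0.199).

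Chromosome 13 as a whole was higher in LM2, with a median log2 fold change of 0.62 for H3K27ac and 0.52 for H3K4me3. The 29 other H3K27ac peaks within 1 Mb of KLF12 had a median of 0.55 in LM2. With size factors computed within each chromosome the intronic peak differed by 1.13 (adjusted p = 0.25) in LM2. Its call was lost as well without Par replicate 1 (1.91) or 2 (1.62), LM2 replicate 1 (1.45) or 2 (1.999), or BrM2 replicate 1 (1.76). KLF5, on the same chromosome, had H3K27ac sums of 139 ± 6.21 CPM in Par, 164 ± 9.35 CPM in LM2 and 120 ± 2.86 CPM in BrM2 over 7 peaks, with no peak called.

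At KLF3, which represses through CtBP, the promoter peak had 108 and 117 CPM in Par, 63.1 and 78.7 CPM in LM2, and 87.2 and 112 CPM in BrM2. LM2 lay below Par without overlap, by −0.73 ± 0.28, and passed only with the block (adjusted p = 0.136, 0.00916 with the block). The 55 other H3K27ac peaks within 1 Mb of KLF3 had a median of −0.34 in LM2, with 41 below 0, beside −0.17 for chromosome 4. KLF7 had peaks at chr2:208039452-208040522 and chr2:208112304-208125027, 872 and 73724 bp upstream. The near one had 3.88 and 2.35 CPM in Par, 13.2 and 8.24 CPM in LM2, and 8.16 and 8.02 CPM in BrM2, with 1.72 ± 0.56 in LM2 (adjusted p = 0.0577, 0.039 with the block). Both metastatic lines lay above Par there and at the far one, which had 33.1 and 35.0 CPM in Par, 54.0 and 71.3 CPM in LM2, and 52.5 and 57.1 CPM in BrM2 (0.81 ± 0.30 in LM2, adjusted p = 0.117, 0.0254 with the block). KLF4 and KLF10 had 9 peaks each and no calls, and their sums were 135, 146 and 98.6 CPM (KLF4) and 197, 182 and 200.2 CPM (KLF10) in Par, LM2 and BrM2.

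**Figure D5:**
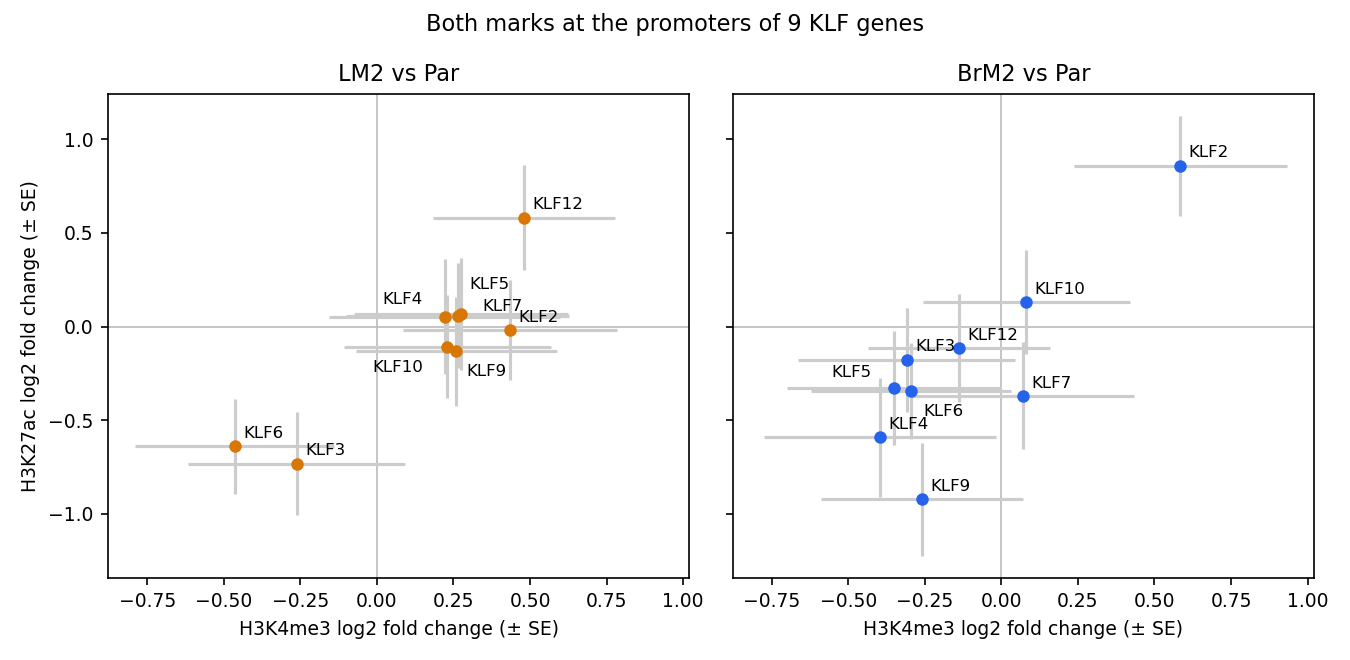
Log2 fold change of promoter H3K27ac against that of promoter H3K4me3, with standard errors, for the 9 KLF genes other than KLF14, in LM2 and in BrM2 against Par. Signs matched for 6 genes in LM2 and for 8 genes in BrM2.

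At the promoters of the 9 genes other than KLF14 the marks mostly pointed the same way. Their log2 fold changes had the same sign at 6 genes in LM2, 8 in BrM2 and 7 in BrM2 against LM2. The share over all promoters was not computed, so the match is not read as particular to these genes. KLF2 had the highest values of both marks in BrM2, at 0.58 for H3K4me3 and 0.86 for H3K27ac, though its H3K27ac peak runs past the gene. KLF6 in LM2 had −0.46 and −0.64. KLF12 in LM2 had 0.48 and 0.58. The marks came from separate libraries of the same lines.

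At the edge of the distance limits, the farthest H3K27ac member was a KLF5 peak at 99230 bp with 4.01 to 6.82 CPM. The nearest peak just outside was one of KLF6 at 100355 bp, with 78.7 and 69.4 CPM in Par, 54.0 and 40.4 CPM in LM2, and 78.8 and 62.7 CPM in BrM2. For H3K4me3 the corresponding peaks were that of KLF7 at 1144 bp and one of KLF9 at 3435 bp with 34.4 to 65.4 CPM.

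No promoter in the rest of the family passed the test. Of 17 other KLF and SP genes, 14 had an H3K4me3 and 13 an H3K27ac promoter peak, and DESeq2 called 0 of them in any of the 3 comparisons of either mark. Over all peaks 2.51% to 3.61% (H3K4me3) and 2.94% to 5.29% (H3K27ac) were called, so 0 calls in sets this small is close to those shares. At an unadjusted p under 0.05 there were 0, 2 and 0 H3K4me3 peaks and 0, 2 and 0 H3K27ac peaks in LM2 against Par, BrM2 against Par and BrM2 against LM2. Over all peaks these were 1830, 2365 and 2453 of 22572, and 6800, 8512 and 6706 of 62195. edgeR called 0 throughout, beside 1.91% to 3.86% of all H3K4me3 and 4.75% to 8.4% of all H3K27ac peaks. With the block, 1, 4 and 3 of the 14 H3K4me3 peaks were called, beside 14.4%, 17.7% and 22.0% of all peaks, and 0, 2 and 0 of the 13 H3K27ac peaks, beside 5.44%, 8.13% and 6.17%. KLF15, which acts in glucose and muscle metabolism, was then higher than in Par in BrM2 for both marks (H3K4me3 0.65 ± 0.16, H3K27ac 1.22 ± 0.36) and in LM2 for H3K4me3 (0.55 ± 0.16), and KLF16, the closest relative of KLF14, was lower in BrM2 for H3K4me3 (−0.47 ± 0.11). The other blocked calls were KLF1 (higher) and SP3 (lower) for H3K4me3 and KLF13 (−0.82 ± 0.25) for H3K27ac in BrM2 against Par, and KLF13, KLF16 and SP3, all lower for H3K4me3, in BrM2 against LM2.

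The 12 partner genes (the corepressors SIN3A, SIN3B, CTBP1 and CTBP2, the deacetylases HDAC1, HDAC2 and HDAC3, the acetyltransferases EP300, CREBBP and KAT2B, and the ubiquitin ligase genes WWP1 and FBXW7) had 13 H3K4me3 and 14 H3K27ac promoter peaks, and DESeq2 called 0 in any comparison. At an unadjusted p under 0.05 there were 0, 0 and 1 H3K4me3 peaks and 1, 1 and 1 H3K27ac peaks, and edgeR called 1 peak, the H3K27ac peak of WWP1, lower in BrM2. The shares of all peaks for these counts are those given for the family above. With the block 3, 2 and 4 of the 13 H3K4me3 peaks and 2, 1 and 0 of the 14 H3K27ac peaks were called, next to the shares of all peaks just given. WWP1, whose product targets KLF2 and KLF5 for degradation, was lower in BrM2 than in Par for H3K4me3 (−0.53 ± 0.12) and H3K27ac (−0.89 ± 0.25), and for H3K4me3 also lower than in LM2 (−0.43 ± 0.12). SIN3A was higher in LM2 than in Par (0.40 ± 0.09) and lower in BrM2 than in LM2 (−0.61 ± 0.09) for H3K4me3. The other blocked calls were, for H3K4me3, HDAC1 (lower) and HDAC3 (higher) in LM2, HDAC2 lower in BrM2 than in both other lines and EP300 lower in BrM2 than in LM2, and, for H3K27ac, CTBP1 and CTBP2 lower in LM2.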

How the data were processed

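ChIP-seq libraries of H3K4me3 and H3K27ac from Par, LM2 and BrM2 cells (12 of 15 samples; the 3 inputs were not used) were grouped by the sample titles, and all 12 count columns matched a sample. The authors aligned reads to hg19 with Bowtie2 2.3.4.3, marked duplicates with Picard 2.18.21 and called consensus peaks with MACS2 2.1.2 (broad) on the merged libraries of a mark, which can miss regions marked in a single line. The deposited values are raw read counts per peak and library from featureCounts, with reads extended by 150 bp. The labels give 10 min of fixation, which differs from the time in the study's methods.

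Peaks were assigned to genes with GENCODE release 44 on GRCh37. Differences were tested with DESeq2 1.42.0 (R 4.3.3; median-of-ratios size factors, unshrunken fold changes, 6 libraries of a mark in 1 fit with cell line as the term, adjusted p under 0.05). Errors after ± are standard errors for log2 fold changes and SDs for levels, and intervals of log2 fold changes are 95% Wald intervals. Where no library of a line had over 3 counts, its level was taken as 3 counts per library and the fold as a lower bound. CPM divides by the total of the library's peaks. Floors cover counting error only. The script was tested on simulated counts.

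The genes and lists were chosen with earlier results of these data known. For all 10 genes the text names the H3K4me3 peaks, the H3K27ac peak that overlaps most of the main one, and up to 2 called H3K27ac peaks per comparison. Peaks that only the block called, the KLF6, KLF7 and KLF9 peaks beside them, the nearby chromosome 7 peaks and the partner genes named were added after their values were seen.

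Replicate numbers in the titles were used to pair the libraries. Same-numbered libraries deviated together from the mean of their line, with r = 0.843 for LM2 with Par, 0.788 for BrM2 with Par and 0.825 for BrM2 with LM2 (H3K4me3), and 0.407, 0.607 and 0.48 (H3K27ac), although no label gives a shared batch or day. In every line replicate 2 had more total counts than replicate 1 for H3K4me3 and fewer for H3K27ac. What the block takes up thus cannot be told apart from a difference that goes with depth. Alternatives were edgeR 4.0.16, the replicate block, TMM and within-chromosome size factors, other filters on low counts, fits of only the lines compared, other starts and distances, and leaving out each library in turn.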

Additional observations from a re-analysis of the deposited data

Results flagged for a closer look

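Both results were picked out by the direct test of BrM2 against LM2, which compares their changes from the same Par libraries. The KLF2 H3K27ac peak that covers the promoter, the gene and bases downstream differed by a log2 value of 0.88 (adjusted p = 0.0393, DESeq2). It had 256 and 236 CPM in LM2 and 384 and 480 CPM in BrM2. The KLF6 H3K27ac peak 16946 bp upstream differed by 0.89 (adjusted p = 0.0267), with 120 and 106 CPM in LM2 and 211 and 188 CPM in BrM2. Both BrM2 libraries were above both LM2 libraries in each case, and both calls were lost on leaving out any 1 of these 4 libraries.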

How the results depend on the processing

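With the replicate block, which uses the pairing of the libraries, the H3K4me3 calls among the 10 peaks rose from 0, 0 and 0 (LM2 against Par, BrM2 against Par, BrM2 against LM2) to 3, 5 and 4 with DESeq2 and to 9, 6 and 6 with edgeR (31.1%, 36.3% and 42.7% of all peaks). They stayed at 0 without each library in turn. The H3K27ac calls among 65 peaks, KLF14 included (3, 3 and 2), became 8, 4 and 6 with the block in DESeq2, 15, 9 and 12 with the block in edgeR (16.5%, 20.3% and 16.7% of all peaks), and 4, 4 and 4 with edgeR without it. With size factors within each chromosome there were 0 in LM2 against Par and 1 in BrM2 against LM2, beside 1627 of 48931 and 1174 of 50136 over all peaks. With at least 10 counts in every library there were 1 and 1 (1058 of 29840 and 837 of 28611 over all peaks). With no independent filtering there were 1 and 1 (1659 and 1242 of 62195). A fit of only the lines compared left no call in BrM2 against Par besides that of KLF14 (2071 of 48932 over all peaks). Leaving out a library gave no more H3K27ac calls among the KLF peaks than the full fit, and fewer over all peaks. Of 876 alternative log2 fold changes for the 63 named values without KLF14, 785 kept their side of the threshold, 43 lost and 48 gained a call, and 0 calls changed sign. Most named values were not calls, so the losses all fell on the few that were. Of 14 alternatives each, KLF2 lost its call in 6 (BrM2 against Par) and 6 (BrM2 against LM2). KLF6 lost it in 10 (LM2 against Par) and 6 (BrM2 against LM2), KLF9 in 9 and KLF12 in 6. The untested KLF14 H3K4me3 values moved to −3.69 (LM2 against Par), −9.90 (BrM2 against Par) and −6.81 (BrM2 against LM2), on leaving out replicate 2 of LM2, BrM2 and BrM2. The calls rest on 2 libraries a line, and the KLF14 H3K27ac counts in LM2 and BrM2 (1 to 7) limit that comparison most.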
